A study of Mus musculus with 3 samples.

Results

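The genes of the heterotrimeric G proteins and of the RGS proteins (regulators of G protein signalling) were examined in RNA bound to tagged ribosomes from the dentate gyrus. They were taken from a list of 43 named genes, 28 for G protein subunits and 15 for RGS proteins. The list was set by gene name, but with earlier results of these data known. All 43 had a row in each count file, among 32531 genes in all. The 3 libraries formed 1 group, immunopurified RNA from the NIDA186 Penk-TRAP line, kept on C57BL/6J, with adult mice and no treatment; sex and pooling are not given in the labels. In this line DNA that controls Penk, which encodes proenkephalin, drives EGFP fused to the ribosomal protein Rpl10a, and antibodies to EGFP recover the tagged polysomes. Whether each replicate is a different animal is not stated, and p-values therefore measure a spread between samples that may be technical. With immunopurified RNA only, enrichment over the tissue could not be measured, and the comparisons are of one gene with another inside each library.

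A heterotrimeric G protein couples a receptor in the membrane to enzymes and channels inside the cell. An activated receptor makes the alpha subunit exchange GDP for GTP, after which alpha and the beta-gamma pair act on separate targets; RGS proteins speed up GTP hydrolysis on alpha and so end the signal. Alpha subunits of the i/o class inhibit adenylyl cyclase, those of the s class stimulate it, those of the q class activate phospholipase C beta, and those of the 12/13 class act on exchange factors of small GTPases. In neurons, i/o-coupled receptors, opioid receptors among them, also open GIRK potassium channels and close calcium channels through beta-gamma.

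The class of an alpha subunit is written in part in its C-terminal tail, which contacts the receptor. The last 33 coding bases are shown for the alpha genes that the levels turn on, from GENCODE vM21 transcripts on GRCm38, because they hold the site at which pertussis toxin acts on i/o proteins other than the Gnaz product; Gnai2, Gnaz and Gna11 are shown for comparison, and Gnal is not shown. Capitals mark 1 codon, with 3 codons after it; in Gnao1 and the Gnai genes it is TGT or TGC, the codon of the cysteine that pertussis toxin modifies. Gnao1 has 2 such ends, from alternative last exons, which the counts per gene do not separate. Gnas also has other annotated coding ends, not separated in the counts either, and the end shown is that of 6 transcripts.
Gnao1 (chr8:93967020-93967052, plus strand): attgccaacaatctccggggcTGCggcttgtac
Gnao1, other end (chr8:93956217-93956249, plus strand): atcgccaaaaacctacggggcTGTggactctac
Gnai1 (chr5:18267022-18267054, minus strand): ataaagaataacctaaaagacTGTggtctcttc
Gnai2 (chr9:107615638-107615670, minus strand): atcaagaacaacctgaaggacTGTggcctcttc
Gnaz (chr10:75015177-75015209, plus strand): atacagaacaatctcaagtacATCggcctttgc
Gnas (chr2:174346353-174346385, plus strand): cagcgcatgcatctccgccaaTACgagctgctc
Gnaq (chr19:16383359-16383391, plus strand): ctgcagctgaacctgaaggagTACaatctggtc
Gna11 (chr10:81530798-81530830, minus strand): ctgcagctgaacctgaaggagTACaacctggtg

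The libraries held 5348761, 19195559 and 11059982 counts on genes in replicates 1 to 3. Replicate 1 had the fewest counts and the lowest share on genes, with 16.3% of its listed reads, against 38.2 and 21.1% in replicates 2 and 3. Of the 43 genes, 15 had under 10 counts there, against 5 and 9. Levels are given as CPM per kb, the counts scaled to library size with TMM factors and divided by the exon length in kilobases. A count of 0 allows up to 3 counts, or 0.732, 0.136 and 0.266 CPM in replicates 1 to 3, for counting error only. Dentate granule cell markers summed to 1822, 2061 and 1067 CPM, led by Stxbp6 at 79.9 ± 47.1 CPM per kb (SD, n = 3), but 3 of 9 had under 10 counts in replicate 1, Calb1 among them with 2, 1350 and 121 counts. Glial markers were in the purified material as well, with 3176, 1414 and 3344 CPM for 6 astrocyte markers and 759 to 1245 CPM for 6 oligodendrocyte markers. The astrocyte sum was above the granule cell sum in replicates 1 and 3, but it was mostly 1 gene. Slc1a2 alone had 2974, 1271 and 2893 CPM (181 ± 73.1 CPM per kb), whereas Gja1 had 0, 296 and 129 counts and Gfap 35, 136 and 474. Under 10 counts in replicates 1 to 3 were found for 1, 0 and 0 of 6 astrocyte and 2, 0 and 0 of 6 oligodendrocyte markers. Lists for other neurons were led by Sst (GABAergic) at 135 ± 39 CPM per kb and Dkk3 (CA3) at 125 ± 66.2. Wfs1 led the CA1 list at 14.7 ± 9.47, Ajap1 that of mossy cells at 12.2 ± 4.4 and Rora that of thalamus at 7.03 ± 5.08. Under 10 counts in replicates 1 to 3 were found for 4, 1 and 2 of 9 GABAergic and 1, 1 and 2 of 4 CA3 markers. For mossy cells it was 3, 1 and 3 of 4 markers, and for CA1 and thalamus 1, 0 and 0 of 4 each. The highest marker of a list alone does not show that its cell type was present. Vascular lists were led by Ly6c1 (endothelial) at 11.4 ± 13.2 and Vtn (mural) at 15.9 ± 14.8 CPM per kb, and Olig1 (oligodendrocyte precursors), P2ry12 (microglia) and Ttr (choroid plexus) had 0 counts in replicate 1. The part of these other cells in the levels below was not tested, and in bulk material fewer cells of a type cannot be told apart from less RNA per cell.

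In brief, Gnao1, Gnai1 and Gnas led the alpha genes, Gnb1 the beta genes, Gng2 the gamma genes and Rgs4 the RGS genes. A gene's level was set against the median tested gene of the same library, on the log2 scale per kb, and tested with limma (TREAT, for levels beyond a log2 difference of 1, adjusted over all tested genes). The filter on low counts left 30 of the 43 genes to test. Of these, 9 lay above the median gene: Gnao1, Gnai1, Gnas, Gnal, Gnaq, Gnb1, Gng2, Gng3 and Rgs4. A further 2 lay below it, Gnb4 and Rgs14, and 19 passed in neither direction. Over all 8162 tested genes, 9.58% lay above the median gene and 3.57% below. Without replicate 1, 12 of 34 lay above and 1 below, with Gng10, Rgs7 and Rgs17 added above, beside 14.6 and 6.06% of all genes tested then. The 1 below was then Rgs3 (-3.87, adjusted p = 0.0016, limma), which did not pass the filter with all libraries, and neither Gnb4 nor Rgs14. Without replicate 2, 6 of 29 lay above and 1 below, beside 7.28 and 3.26%, and without replicate 3, 9 of 31 lay above and 0 below, beside 7.13 and 2.48%. With no length correction 11 of 30 lay above and 1 below, beside 13.9 and 4.99%, and with no filter 19 of 41 and 4, beside 17.7 and 16.8%; the 4 below were then Gna14, Gnb2, Gng8 and Rgs6, and neither Gnb4 nor Rgs14. Gnao1, Gnai1, Gnas, Gnb1, Gng2 and Rgs4 were called above under each of the 10 alternatives tried. The median level of all 43 genes was 0.44, with 0.92 for the 28 subunits and -0.79 for the 15 RGS genes, and the same median was -0.14 over all tested genes and -3.92 over the 23927 genes with a row and an exon length, tested or not.

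**Figure D1:**
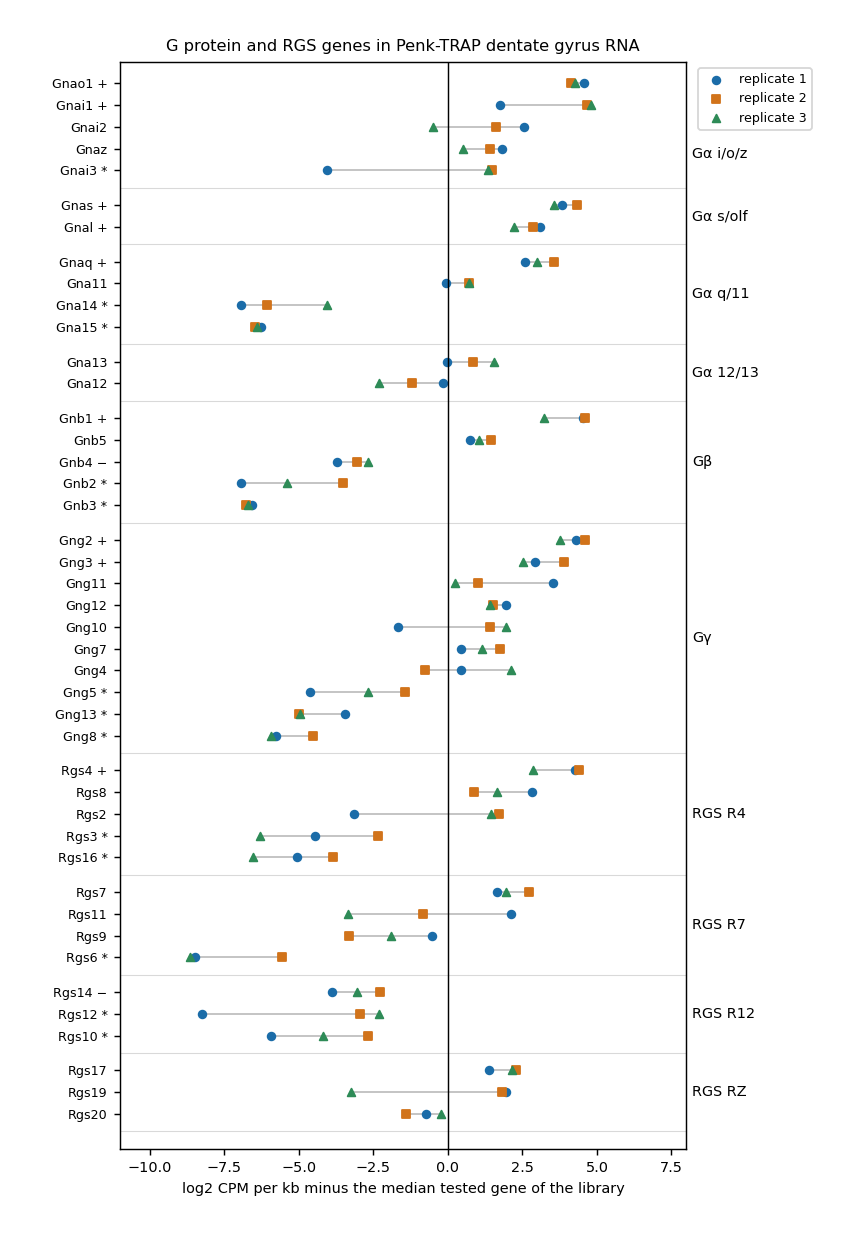
Level of each of the 43 genes in each library, as log2 CPM per kb minus the median tested gene of that library (0, vertical line); within a class, genes are ordered by mean CPM per kb, and grey lines span the 3 libraries. A plus marks the 9 genes called above the median gene, a minus the 2 called below, and an asterisk the 13 genes that did not pass the filter on low counts; Gnao1 and Gng12 have the narrowest spans among tested genes, whereas Gnai3, Rgs2 and Rgs12 lie far lower in replicate 1 than in the other libraries.

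Among i/o alpha genes, Gnao1 (chromosome 8, 93809966 to 93969388, plus strand), which encodes the most abundant G protein of brain membranes, stood at 135, 116 and 124 CPM per kb in replicates 1 to 3. The libraries were close to each other, and its level was 4.32 above the median gene (SE 0.42, adjusted p = 5.9e-05, limma). Gnai1 (chromosome 5, 18265135 to 18360355, minus strand), an inhibitor of adenylyl cyclase, had 19.1, 168 and 179 CPM per kb. With all exon bases of a gene as its length, it was the highest alpha gene in replicates 2 and 3 but the seventh in replicate 1, where it had 245 counts, against 11639 and 6347 in replicates 2 and 3; it was above the median gene all the same, at 3.74 (SE 0.56, adjusted p = 0.0022). Gnao1 minus Gnai1 was 2.82 on the log2 scale in replicate 1 and -0.53 and -0.54 in replicates 2 and 3. This change of order depended on the length used, since the Gnao1 exons sum to 11053 bases and its longest transcript has 5526, whereas both are 3135 for Gnai1. With the longest transcript as length Gnao1 was ahead in 3 of 3 libraries, by 3.82, 0.47 and 0.46 (mean 1.58), and with no length correction by 4.64, 1.29 and 1.28 (mean 2.40).

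The other i/o genes were lower on average, although Gnai2 and Gnaz were above Gnai1 in replicate 1. Gnai2, a further inhibitor of adenylyl cyclase found in most tissues, had 33.2, 20.2 and 4.45 CPM per kb, and Gnao1 exceeded it in 3 of 3 libraries, by a mean of 3.11 (SD 1.47), or 8.62-fold. With 3 libraries the exact sign-flip test cannot give a p below 0.25, so differences between genes are given without a test. Gnaz, whose product lacks the pertussis toxin cysteine and hydrolyses GTP slowly, had 20.3, 17.3 and 8.99 CPM per kb. Gnai2 and Gnaz passed in neither direction, at levels of 1.22 and 1.24 (adjusted p = 0.72 and 0.68, limma). Gnai3, another inhibitor of adenylyl cyclase, had 4, 1333 and 596 counts, so that it was near 0 in replicate 1 and reached 18.5 and 16.2 CPM per kb in the others; it did not pass the filter.

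Both s-class genes lay above the median gene. Gnas (chromosome 2, 174284320 to 174346744, plus strand), the stimulatory subunit found in most cells, had 81.2, 132 and 75.5 CPM per kb, and Gnal, the olfactory form that also serves dopamine and adenosine receptors in the striatum, had 48.5, 47.5 and 29.9. Gnas exceeded Gnal in each library, by 0.75, 1.47 and 1.34 on the log2 scale, a mean of 1.18 (SD 0.39) or 2.27-fold. Their levels were 3.90 (SE 0.43, adjusted p = 2.0e-04) and 2.72 (SE 0.45, adjusted p = 0.0106, limma). The Gnal call ended without replicate 2 (2.57, adjusted p = 0.0964). Gnas is uncertain in its exact level, since its locus also gives longer and shorter products from other first exons and 21.96% of its exon bases are shared with antisense genes; the strand setting of the counting is not given in the sources used here. With the longest transcript as length the mean Gnas to Gnal difference was 1.73. Beside Gnal, 5 striatal markers summed to 130 to 229 CPM, led by Pde10a at 12.3 ± 4.06 CPM per kb, while other markers of the list were low: Drd1 had 17, 99 and 59 counts, and Ppp1r1b 1, 26 and 26.

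In the q class, Gnaq made up 86.5, 88.01 and 82.4% of the summed CPM per kb in replicates 1 to 3. It had 34.8, 78.5 and 50.2 CPM per kb, the same place in the order of alpha genes in each library, after 3 others, and lay 3.05 above the median gene (SE 0.44, adjusted p = 0.0032, limma; 2.70 and adjusted p = 0.0599 without replicate 2). Gna11, its widely expressed relative, had 5.42, 10.6 and 10.4 CPM per kb and a level of 0.44 (adjusted p = 0.993). Gnaq exceeded it in 3 of 3 libraries by 2.61 (SD 0.31), or 6.09-fold. Gna14 had 0, 4 and 13 counts. Gna15, a form of blood cells, had 0 counts in each library.

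The 12/13 genes were near the median gene or lower. Gna13 had 5.62, 11.7 and 18.5 CPM per kb and Gna12 had 5.07, 2.84 and 1.24, at levels of 0.78 and -1.22 (adjusted p = 0.94 and 0.75, limma). The genes were nearly equal in replicate 1, with a difference of -0.14 for Gna12 minus Gna13, and apart in replicates 2 and 3, at -2.02 and -3.84. Their order was the same in 3 of 3 libraries, with a spread nearly as large as the mean difference (-2.0, SD 1.85).

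Added up per kb, the i/o genes made up 53.5, 54.6 and 64.1% of the alpha total in replicates 1 to 3, the s genes 33.4, 28.8 and 20.3%, the q genes 10.4, 14.3 and 11.7% and the 12/13 genes 2.75, 2.33 and 3.80%. With all exon bases as length, the order of the 4 classes was thus the same in each library, although the gene leading the i/o class was not. With the longest transcript as length, Gnao1 was ahead of Gnai1 in each library. The level of Gnas was then 4.95, beside 4.87 for Gnao1, against 3.90 and 4.32 with all exon bases. Class shares were computed only with all exon bases, so the split between the i/o and s classes may depend on the length. Gnao1 made up 34.7, 18.7 and 23.8% of the alpha total, and Gnai1 4.91, 26.9 and 34.6%. These shares describe RNA on tagged ribosomes and not protein.

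**Figure D2:**
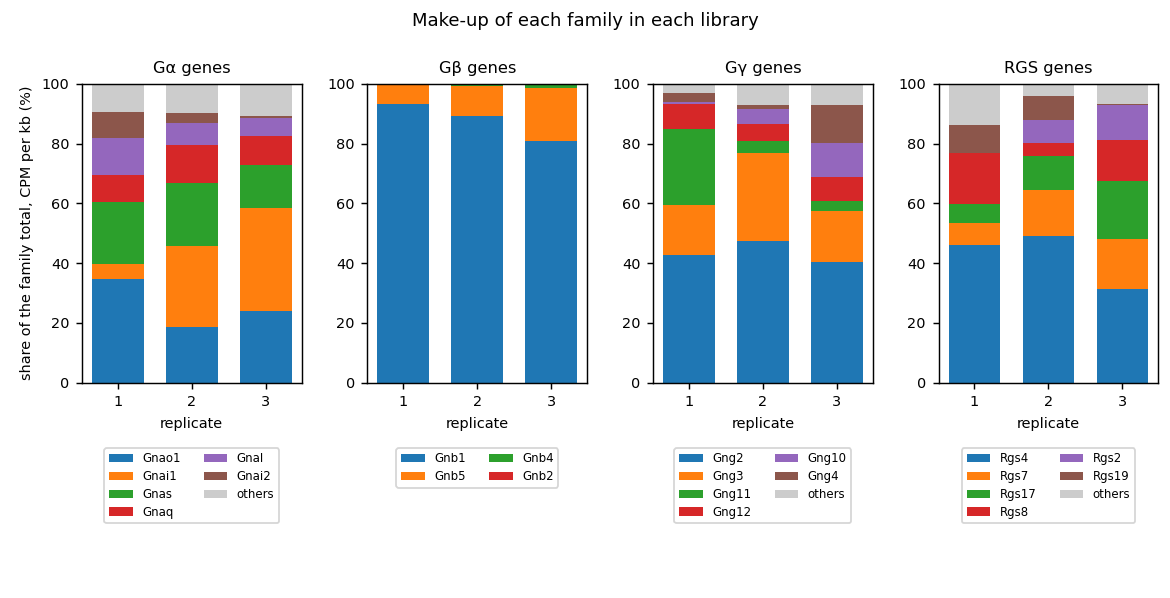
Share of each gene in the summed CPM per kb of its family, in percent, for the 3 libraries; the 6 highest genes by mean share are coloured (for beta, those with any counts) and the rest are grey. Gnb1 takes 81.0 to 93.1% of the beta total, Gng2 40.4 to 47.6% of the gamma total and Rgs4 31.5 to 48.9% of the RGS total, whereas Gnao1 and Gnai1 change places in the alpha total with the exon length plotted, and not with the longest transcript as length.

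Among beta genes a single member dominated. Gnb1 (chromosome 4, 155491361 to 155559269, plus strand), the common partner of gamma subunits, had 134, 161 and 59.9 CPM per kb, a level of 4.13 (SE 0.45, adjusted p = 1.6e-04, limma). Gnb5, the divergent beta subunit that binds R7-type RGS proteins in place of a gamma subunit, came next in each library with 9.48, 17.9 and 13 CPM per kb, and Gnb1 exceeded it by 3.06 (SD 0.81), or 8.32-fold. Gnb4 had 0.42, 0.78 and 0.98 CPM per kb and was called below the median gene (-3.15, SE 0.72, adjusted p = 0.038), but not without replicate 1 (-2.38, adjusted p = 0.22) or replicate 3 (-3.26, adjusted p = 0.106). The call was lost too with no length correction (-1.89, adjusted p = 0.38), with the longest transcript as length (-2.53, adjusted p = 0.15) and with no filter (-1.21, adjusted p = 0.63), so that it held under 5 of 10 alternatives.

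Gnb2 was nearly absent from the counts. It had 0, 40 and 4 counts, although it encodes a beta subunit found in most tissues, and Gnb1 exceeded it by 11.5, 8.12 and 8.63 on the log2 scale in replicates 1 to 3. Where Gnb2 has few or no counts these sizes follow from the prior count, and raising counts under 3 to 3 gave a mean of 8.58. Gnb3, the subunit of cone photoreceptors, had 0 counts in each library. Overlapping genes on the same strand share 3.94% of the Gnb2 exon bases. The annotation holds 2 named pseudogenes of Gnb1 and 1 each of Gng2 and Gng5, so reads of these genes may be split or lost.

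Gamma subunits carry the lipid that holds the beta-gamma pair in the membrane, and the last coding codon decides which lipid is added: with a leucine codon it is a geranylgeranyl group, and with the serine codon of Gng11 a farnesyl group. The last 24 coding bases of the leading gamma genes show this difference, with the last codon in capitals.
Gng2 (chr14:19875810-19875833, minus strand): aagaagttcttctgcgccatcCTT
Gng3 (chr19:8838146-8838169, minus strand): aagaagttcttctgtgcgctcCTC
Gng12 (chr6:67017563-67017586, plus strand): gataagaagacctgcatcatcTTA
Gng11 (chr6:4008134-4008157, plus strand): gaaaagggcagctgtgtcattTCA

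Gng2 (chromosome 14, 19872559 to 19977627, minus strand), a common gamma subunit of brain, was the highest gamma gene in each library, at 112, 160 and 87.3 CPM per kb (level 4.22, SE 0.43, adjusted p = 8.5e-05, limma). Gng3, a neuronal form, had 43.5, 99 and 36.7 CPM per kb and a level of 3.12 (SE 0.46, adjusted p = 0.0031). Gng3 lay below Gng2 in 3 of 3 libraries, with a mean difference of -1.10 on the log2 scale (SD 0.36). Gng3 lost its call without replicate 2 (2.64, adjusted p = 0.0741) and with no length correction (1.44, adjusted p = 0.46), and antisense genes share 24.2% of its exon bases and 20.4% of those of Gng2.

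The other gamma genes passed in neither direction or did not pass the filter. Gng12, a widely expressed form, had 22.3, 18.9 and 16.9 CPM per kb, with close libraries, and a level of 1.63 (adjusted p = 0.35, limma). Gng11 had 66.1 CPM per kb in replicate 1, where it was second only to Gng2, but 13 and 7.42 in replicates 2 and 3. Gng4 went the other way, with 7.81, 3.83 and 27.9 CPM per kb, highest in replicate 3. Gng7, the partner of Gnal in the striatum, had 7.73, 22 and 14.1 CPM per kb (level 1.11, adjusted p = 0.78). Gng10 had 9, 509 and 368 counts, and 72.0% of its exon bases are shared with an overlapping gene on the same strand, so its level is uncertain.

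Gng5, a widely expressed form with 2, 145 and 29 counts, Gng8 of olfactory neurons, with 0, 6 and 0, and Gng13 of taste cells, with 1, 0 and 0, did not pass the filter. Gng7 minus Gng13 averaged 5.57 on the log2 scale, or 4.43 with counts below 3 set to 3. Gng13 shares 51.6% of its exon bases with an antisense gene and is annotated at only 773 exon bases, so its counts are uncertain.

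RGS genes of the R4 family encode small proteins that act on i/o and q alpha subunits. Rgs4 (chromosome 1, 169741477 to 169747642, minus strand), a regulator abundant in cortical neurons, was the highest RGS gene in each library, at 109, 138 and 46.2 CPM per kb, and the only RGS gene called above the median gene (3.83, SE 0.46, adjusted p = 3.8e-04, limma). Rgs8 had 40.4, 12 and 19.8 CPM per kb, highest in replicate 1 (level 1.77, adjusted p = 0.29; with no length correction 2.64, adjusted p = 0.0062). Rgs2, a regulator selective for the q class that is induced by neuronal activity, had 9 counts in replicate 1, against 1743 and 707 in replicates 2 and 3, or 0.61, 21.7 and 17.3 CPM per kb. Rgs4 exceeded Rgs2 in 3 of 3 libraries, by 7.39, 2.66 and 1.42 on the log2 scale, so that its size differed widely between libraries. Rgs3 had 11, 306 and 8 counts and Rgs16 had 1, 20 and 0.

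R7 proteins form obligate pairs with Gnb5 and act on i/o alpha subunits. Rgs7 had 17.9, 43.4 and 24.6 CPM per kb, above Gnb5 in each library, at a level of 2.10 that missed the threshold (SE 0.47, adjusted p = 0.0995, limma). It passed without replicate 1 (2.83, adjusted p = 1.8e-04), with no length correction (2.29, adjusted p = 0.0268) and with the longest transcript as length (2.36, adjusted p = 0.0402). Rgs6, its close relative, had 0, 27 and 0 counts, and Rgs7 exceeded it by 9.68 on the log2 scale, or 8.38 with counts below 3 set to 3. Rgs11 had 24.9, 3.62 and 0.59 CPM per kb, from 429, 337 and 28 counts, highest in the library where Rgs7 was lowest. Rgs9, best known in striatum and photoreceptors, had 3.89, 0.64 and 1.69 CPM per kb (level -1.92, adjusted p = 0.41).

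The RZ family, which acts on i/o/z alpha subunits, was led by Rgs17 on average. Rgs17 had 14.9, 32.2 and 28.5 CPM per kb and was 6, 3 and 2 in the order of RGS genes in replicates 1 to 3. Its level of 1.94 missed the threshold (SE 0.48, adjusted p = 0.16, limma) and passed without replicate 1 (2.72, adjusted p = 5.1e-04) and with no length correction (2.60, adjusted p = 0.0056). Rgs19 was split between libraries, with 22 and 23 CPM per kb in replicates 1 and 2 but 0.60 in replicate 3, where it had 15 counts. Rgs20 was low, at 3.40, 2.47 and 5.35 CPM per kb.

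R12 genes were the lowest RGS family. Rgs14, a multidomain regulator known as a marker of CA2 pyramidal neurons, had 6, 123 and 35 counts, or 0.34, 1.31 and 0.73 CPM per kb, and lay below the median gene (-3.08, SE 0.74, adjusted p = 0.0491, limma). It was not called without replicate 1 (-2.19, adjusted p = 0.29) or replicate 3 (-2.97, adjusted p = 0.19), and Rgs14 did not pass the filter without replicate 2. The longest transcript as length (-2.70, adjusted p = 0.11) and the lower prior count of 0.5 (-3.14, adjusted p = 0.0507) ended the call as well, as did no filter (-1.15, adjusted p = 0.66), and Rgs14 was not tested in thinned libraries; it kept the call under 3 of 10 alternatives. Beside it, 4 CA2 markers summed to 5.37, 31 and 15.8 CPM, led by Necab2 at 6.35 ± 4.24 CPM per kb, with Pcp4 near 0 at 1, 5 and 0 counts. Rgs12 had 0, 157 and 122 counts and Rgs10, which is abundant in microglia, had 0, 35 and 5, beside microglial markers that summed to 3.42, 6.82 and 21.6 CPM, with C1qa at 0 counts in each library. Rgs14 exceeded Rgs12 in 2 of 3 libraries, by 1.42 on average (SD 2.63), a difference smaller than its spread.

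Summed per kb, R4 genes made up 63.3, 61.5 and 56.8% of the RGS total, R7 genes 19.6, 17.0 and 18.3%, RZ genes 16.9, 20.4 and 23.4% and R12 genes 0.15, 1.09 and 1.54%. The share of R4 and R7 genes varied less between libraries than those of single genes: Rgs4 made up 45.9, 48.9 and 31.5%, Rgs7 7.53, 15.4 and 16.7%, and Rgs11 10.5, 1.28 and 0.40%.

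The genes differed widely in how well the libraries matched. All 30 tested genes varied beyond counting noise (Poisson chi-square test, adjusted over all genes), but so did 97.4% of all genes tested, so this count says nothing particular of them. The SD of log2 CPM between libraries had a median of 0.76 over the 30 tested genes and of 0.96 over all tested genes. Gnao1 had the smallest SD, 0.11, lower than all but 0.99% of tested genes, followed by Gng12 at 0.20 and Gnal at 0.39. At the other end were Rgs19 at 2.93, Rgs2 at 2.83 and Rgs11 at 2.66, each above at least 97.9% of tested genes. Of the genes that did not pass the filter, Rgs12 at 3.36 and Gnai3 at 3.26 had larger SDs still. Rgs19 and Rgs11 had their fewest counts in replicate 3 and Rgs2 in replicate 1. Depth and the share of reads on genes were lowest in replicate 1, and their part in these spreads was not tested.

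**Figure D3:**
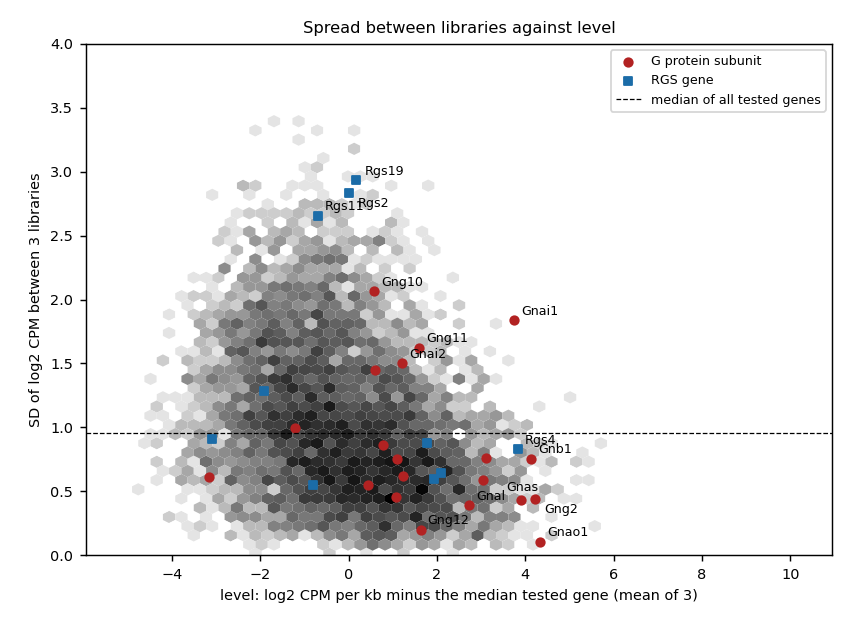
SD of log2 CPM between the 3 libraries against level, the log2 CPM per kb minus the median tested gene averaged over libraries; grey hexagons hold all 8162 tested genes, darker where denser on a log scale, and the dashed line is their median SD of 0.96. Red circles are the 20 tested G protein subunit genes and blue squares the 10 tested RGS genes; Gnao1 lies at the lower right with an SD of 0.11, Gnai1 stands out among high genes with 1.84, and Rgs19, Rgs2 and Rgs11 lie at the top.

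Other genes of the pathway were read from 8 lists with 46 genes, of which 28 passed the filter; 10 lay above the median gene and 1 below it, beside the 9.58 and 3.57% over all tested genes. The count above was 6 without replicate 2, where Plcb1, Kcnj3, Prkar1a and Gpr158 lost their calls, and 6 without replicate 3, where Adcy9, Kcnj3, Prkar1a and Gpr158 did. Adenylyl cyclases, which make cyclic AMP and differ in their control by G protein subunits, had 2 of 10 genes above. Adcy1, the calcium-stimulated cyclase of the hippocampus, had 181, 72.2 and 77.4 CPM per kb (level 4.01, SE 0.46, adjusted p = 2.4e-04, limma), and Adcy9 had 50.9, 26.4 and 46.6 (2.67, adjusted p = 0.0140; 2.28 with adjusted p = 0.0544 with the longest transcript as length). The lowest cyclase, Adcy7, had 3, 17 and 2 counts. Of the protein kinase A subunits, the targets of cyclic AMP, 3 of 6 lay above: the regulatory subunit Prkar1a with 13.2, 116 and 96.2 CPM per kb, and the catalytic subunits Prkaca with 57.7, 80.6 and 73.9 and Prkacb with 83.5, 96.7 and 28.5. Prkar1a shared the low value in replicate 1 seen for Gnai1, and the lowest subunit, Prkar2b, had 6.28, 17.3 and 9.28 CPM per kb.

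Of the phospholipase C beta genes, the effectors of Gnaq, Plcb1 was above the median gene with close libraries, at 40.8, 43.2 and 44.5 CPM per kb (2.78, SE 0.44, adjusted p = 0.0073, limma), while Plcb4 had 2, 1185 and 1762 counts and Plcb2 0, 0 and 2. Of the GIRK channel genes, targets of beta-gamma, Kcnj3 was above with 29.6, 44.8 and 24.3 CPM per kb (2.35, adjusted p = 0.0400), a call also lost in thinned libraries (2.08, adjusted p = 0.096) and with the longest transcript as length (1.90, adjusted p = 0.18). Kcnj6 had 24.5, 27.8 and 30.8 CPM per kb and missed the threshold (2.15, adjusted p = 0.0775), which it passed without replicate 1 (2.67, adjusted p = 7.9e-04), and Kcnj5 had 0, 10 and 0 counts. Of the exchange factors that the 12/13 class acts on, Arhgef12 was above, at 50.7, 44.3 and 41.2 CPM per kb (2.86, adjusted p = 0.0055), and Arhgef11 at 10.03, 6.03 and 7.70 CPM per kb passed in neither direction. Arhgef1, at 0.473, 0.993 and 0.561 CPM per kb, was below (-3.23, adjusted p = 0.0310), but not without replicate 1 (-2.59, adjusted p = 0.15) or replicate 3 (-2.99, adjusted p = 0.19). That call was lost too with no filter (-1.29, adjusted p = 0.61), with no length correction (-2.68, adjusted p = 0.0911) and with the longest transcript (-2.82, adjusted p = 0.0822).

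Of the 4 genes for partners of R7 proteins, 2 passed the filter and both lay above the median gene. Rgs7bp, which anchors R7 complexes at the membrane, had 81.0, 135 and 60.4 CPM per kb (3.80, SE 0.44, adjusted p = 2.9e-04, limma), and Gpr158, an orphan receptor that binds Rgs7, had 41.6, 27.1 and 25.8 (2.30, adjusted p = 0.0491; 2.04 with adjusted p = 0.111 in thinned libraries and 2.04 with adjusted p = 0.117 with the longest transcript). The retinal partners Rgs9bp and Gpr179 had 0, 0 and 0 and 0, 5 and 0 counts. Of the 8 receptor kinase and arrestin genes, which switch receptors off, 5 passed the filter and 0 were called by limma, with 0 at an unadjusted p under 0.05. The kinase Grk2, listed as Adrbk1, was highest at 24.4, 12.7 and 13.1 CPM per kb, ahead of Arrb1 at 15.9, 9.69 and 10.9, and Grk1 of photoreceptors had 0 counts in each library. Of the 7 exchange factor and chaperone genes, 3 passed the filter and 0 were called, with 0 at an unadjusted p under 0.05. Pdcl was highest on average, at 4.81, 6.11 and 2.34 CPM per kb, but Ric8b, at 5.0, 5.70 and 2.08, was above it in replicate 1, and Pcp2 had 0 counts in each library.

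**Figure D4:**
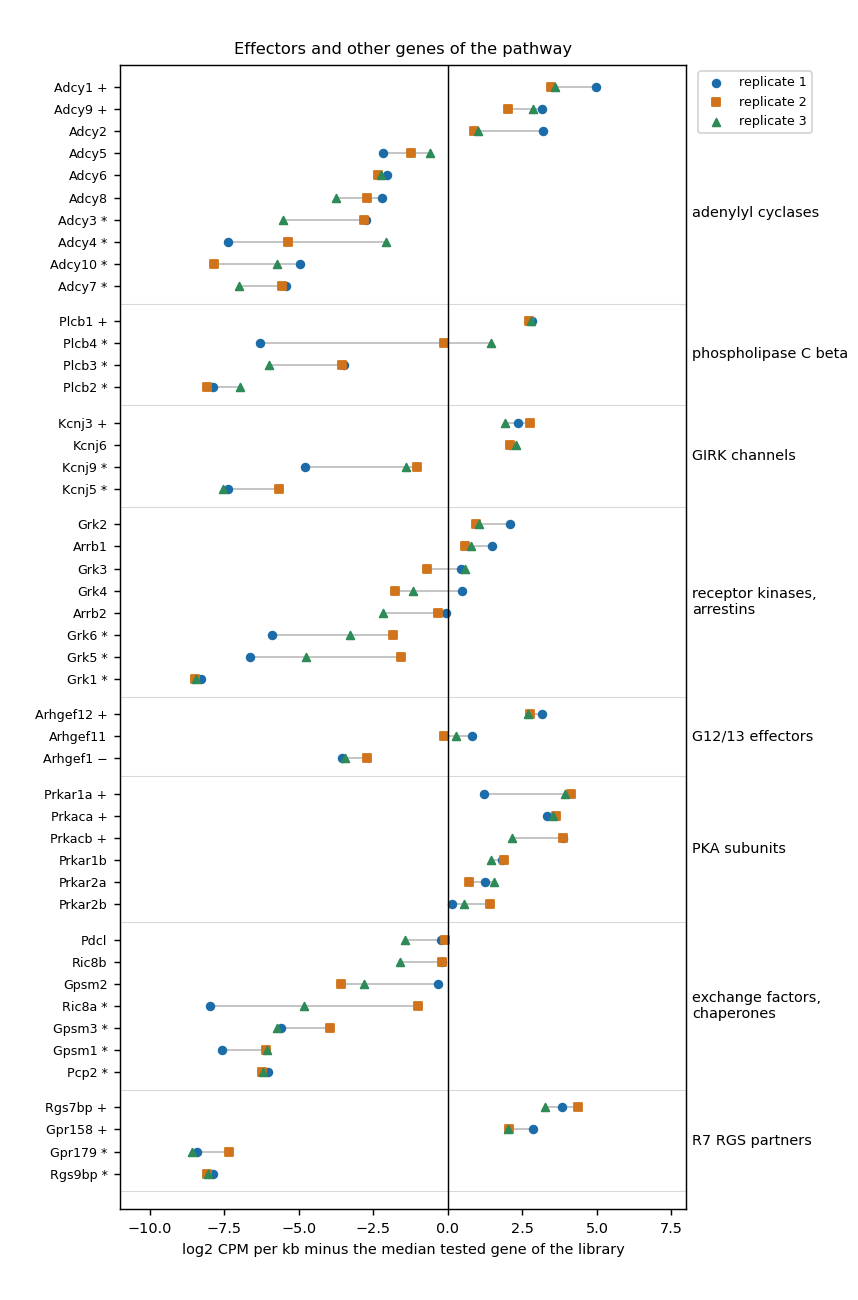
Level of the 46 effectors and other pathway genes in each library, as log2 CPM per kb minus the median tested gene (0, vertical line), ordered by mean CPM per kb within each list; plus, minus and asterisk mark genes called above, called below and not passing the filter on low counts. Adcy1, Plcb1, Kcnj3, Arhgef12 and Rgs7bp lead their lists above the median gene, and Plcb4 and Prkar1a lie lower in replicate 1 than in the other libraries.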

How the data were processed

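Each deposited file holds raw read counts per gene symbol for 1 library. STAR 2.0.0e, HTSeq and mm10 are named, per the submitters' processing notes; annotation, strand setting and filters are not given in the sources used here, and the authors' counts were not normalised or pooled. Summary rows were left out: reads without a gene feature were 35.4 to 50.7% of those listed and reads aligned to several places 24.8 to 37.5%. Genes with near-identical copies lose reads that way.

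Exon lengths came from GENCODE vM21 (GRCm38), matched for 73.6% of symbols. filterByExpr (edgeR 4.0.16, R 4.3.3) kept 8510 genes, of which 8162 had a length and were tested. Log2 CPM used TMM factors (0.781, 1.21 and 1.06) and a prior count of 2. limma 3.58.1 (trend, TREAT, log2 threshold 1) tested levels, with p-values adjusted by Benjamini-Hochberg and called under 0.05. Alternatives were DESeq2 1.42.0 size factors, other filters, lengths and prior counts, low counts raised to 3, thinned libraries, and each replicate left out. Scripts were tested on simulated data. Named with values were, by rule, the 3 highest genes and the lowest of each class, the genes of 12 preset pairs, the 3 with the largest and the 3 with the smallest SD, the 2 highest and the lowest of each pathway list, and the highest marker of each list; other genes were named after their values were seen. Some items that this rule names are not reported here. The genes and lists were chosen with earlier results of these data known. Figures used matplotlib 3.10.9.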

Additional observations from a re-analysis of the deposited data

How the results depend on the processing

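Over the 43 gene levels and 10 alternatives, 354 values kept their direction and their side of the threshold or moved by less than the SD. Genes above the median gene numbered 6 to 12 with 1 replicate left out and 19 of 41 with no filter, which lowers the median gene by construction; 4 were then below, with neither Gnb4 nor Rgs14 among them. Genes below numbered 0 to 1 with 1 replicate left out, 1 when thinned, with no length correction or with a prior count of 0.5, and 0 with the longest transcript as length. The median level of all 43 genes, 0.45 averaged over libraries, was 2.39 with no filter and 0.16 to 1.18 with 1 replicate left out. Pathway genes above numbered 6 to 12 with 1 replicate left out and 17 with no filter; those below numbered 0 to 2 with 1 replicate left out, 6 with no filter, 2 when thinned and 0 with no length correction.

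With no length correction the differences were 4.66 for Gnao1 minus Gnai2, 3.20 for Gnaq minus Gna11, -2.52 for Gng3 minus Gng2 and 7.87 for Gng7 minus Gng13, by the lengths alone. Gnas minus Gnal was 1.73 with the longest transcript. With a prior count of 0.5, Gng7 minus Gng13 was 7.07 and Rgs7 minus Rgs6 11.1; with counts below 3 set to 3 the latter pair differed by 8.38. With 1 replicate left out, Gnao1 minus Gnai1 ran from -0.53 to 1.15 and Rgs14 minus Rgs12 from -0.053 to 2.52; both turned without replicate 1. Gnao1 minus Gnai1 was 1.58 with the longest transcript and 2.40 with no length correction, where Gnao1 was ahead in each library. The sign of 9 levels that had passed in neither direction turned: Gna12 (0.72), Rgs9 (0.019), Rgs11 (1.25) and Rgs20 (1.15) with no filter; Gng4 (-0.052), Gng10 (-1.44), Gng11 (-0.93), Rgs2 (-0.53) and Rgs19 (-1.08) with no length correction; and with 1 replicate left out Gng4 (-0.027 to 1.21), Gng10 (-0.0018 to 2.18), Rgs2 (-0.91 to 2.07), Rgs11 (-1.62 to 0.76) and Rgs19 (-0.70 to 2.0). Rgs2 lay at -0.18 with the longest transcript and -0.016 with a prior count of 0.5. The pathway counts under the alternatives were added after the data were seen. Beyond these constructions the cause was not tested. No paired analysis was possible because the libraries form 1 group.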
